A study of Mus musculus with 8 samples.

Results

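The cells described here are those that the authors assigned to the class Th17, 843 of 77393 cells (1.09%) in a single-cell RNA sequencing study of whole mouse kidney. All cells carrying that class name in the deposited cell table were taken, with the sample of each cell from the same table. Of the 843 cells, 709 (84.1%) came from 2 samples labelled unilateral ureteric obstruction (UUO) and 134 from 6 samples labelled control. In UUO the outflow of one kidney is blocked at the ureter, and that kidney becomes inflamed and scarred. All mice were C57BL/6 animals of 7 weeks. The same treatment text, ligation of the left ureter and sacrifice on day 7, stands at all 8 samples, so how the Control kidneys were treated is not known from the labels, and the 2 groups are told apart by sample title. The series title links basophils to Th17 immunity and kidney fibrosis, which sets the question of how far Th17 cells, and the classes beside them, differ between UUO and Control kidneys.

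Th17 cells are CD4 helper T cells that make interleukin-17 (Il17a), a cytokine that prompts epithelial and stromal cells to recruit neutrophils. Their program is driven by the transcription factor RORγt and is kept up by interleukin-23 acting through its receptor (Il23r). They are studied beside regulatory T cells (Treg), which hold back immune responses and arise from the same naive CD4 precursors under partly shared signals. Gene-level counts are not analysed here, so the class could not be checked against Il17a and Il23r, and other cells that make interleukin-17 could not be told apart from it. The name Th17 is the authors' throughout.

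The samples held 2263 to 18393 cells and 4375942 to 56755823 UMIs (unique transcript molecules) each. Controls 3 and 4 were pooled and counted as 1 sample, because their numbers of cells per class did not differ in a chi-square test at 0.05, though only just (p = 0.0509), while every other pair of Control samples did (p at most 4.09e-41). That test treats cells as independent, so it covers counting error only and depends on the number of cells, and these 2 libraries are among the 3 Control libraries with the fewest cells. Kept as 8 separate samples, the difference in the Th17 share of all cells given below was 2.83 in place of 3.10 (limma adjusted p = 0.00634). This left 2 UUO and 5 Control samples, 21 ways of choosing 2 of 7, and a smallest possible exact p of 0.0476. Controls 3 and 4 shared 10 cell barcodes, and no barcode held by more than 1 library had the same UMIs and genes there. No barcode belonged to Th17 cells of more than 1 library. The labels do not tie samples to animals. The p-values therefore reflect the variation among these libraries, part or all of which may be technical. Those of limma also draw on the variation of the other classes in the fit. Controls 3 and 4 and Controls 5 and 6 stood apart from the rest in ways given below, and the values that moved most without them are given beside the results.

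Th17 cells made up a larger part of the cells in UUO than in Control kidneys. UUO 1 held 354 Th17 cells, 1.92% (1.73 to 2.13) of its cells, and UUO 2 held 355, 2.75% (2.47 to 3.04). Here and below the intervals in parentheses after a single sample's share are exact (Clopper-Pearson) 95% binomial intervals, which cover counting error only. Among the Control samples, 8 Th17 cells were 0.222% (0.0960 to 0.438) in Control 1, 11 were 0.171% (0.0854 to 0.306) in Control 2, and 18 and 32 were 0.795% (0.472 to 1.25) and 0.810% (0.555 to 1.14) in Controls 3 and 4. Controls 5 and 6 held 42 and 23 Th17 cells, 0.260% (0.187 to 0.351) and 0.168% (0.107 to 0.253). Both UUO samples lay above every Control sample, and within Control the 2 pooled samples lay above the other 4, whose intervals they did not touch. The mean was 2.34% ± 0.580 (SD, n = 2) over the UUO samples and 0.325% ± 0.271 (SD, n = 5) over the Controls, a ratio of 7.18. Shares of recovered cells do not give numbers of cells per kidney.

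Shares were tested as log2 odds of n Th17 cells among N, log2((n + 0.5)/(N - n + 0.5)). The UUO minus Control difference was 3.10 (95% interval 1.43 to 4.76, limma adjusted p = 0.00187 over 28 classes). The two-sided exact permutation p was 0.0476, the smallest these samples allow, and adjusted over the 28 classes it was 0.111, which does not pass. The adjusted value could pass only if nearly all 28 classes were at that smallest p. The number of samples thus all but set this outcome. Without Controls 3 and 4 the difference was 3.49, and without Controls 5 and 6 it was 2.85 (limma adjusted p = 6.7e-05 and 0.0194). In that fit 14 of the 28 classes (50.0%) passed an adjusted p of 0.05, 6 of them (21.4%) with a higher share in UUO, and in 5 (17.9%) both UUO samples lay above every Control sample. The number of calls rested on both UUO samples: 3 classes passed as higher and 0 as lower without UUO 1, and 2 as higher and 9 as lower without UUO 2, against 6 and 8 with both. Th17 had the largest positive difference of the 28. The classes next to it were Treg at 2.83, cytotoxic effector cells (CD8 effector) at 2.81, CD8 T cells at 2.76, basophils (Baso) at 2.74 and the remaining CD4 T cells at 2.60. Their intervals overlap that of Th17, Th17 was not the first under some alternatives, and the ratios given further on test 3 of these differences. The limma fit of all cells gave every class the same standard error, 0.842, so neither its interval nor its p measures the spread of Th17 itself. It used 140 degrees of freedom, with the spread pooled over classes whose shares depend on each other.

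**Figure D1:**
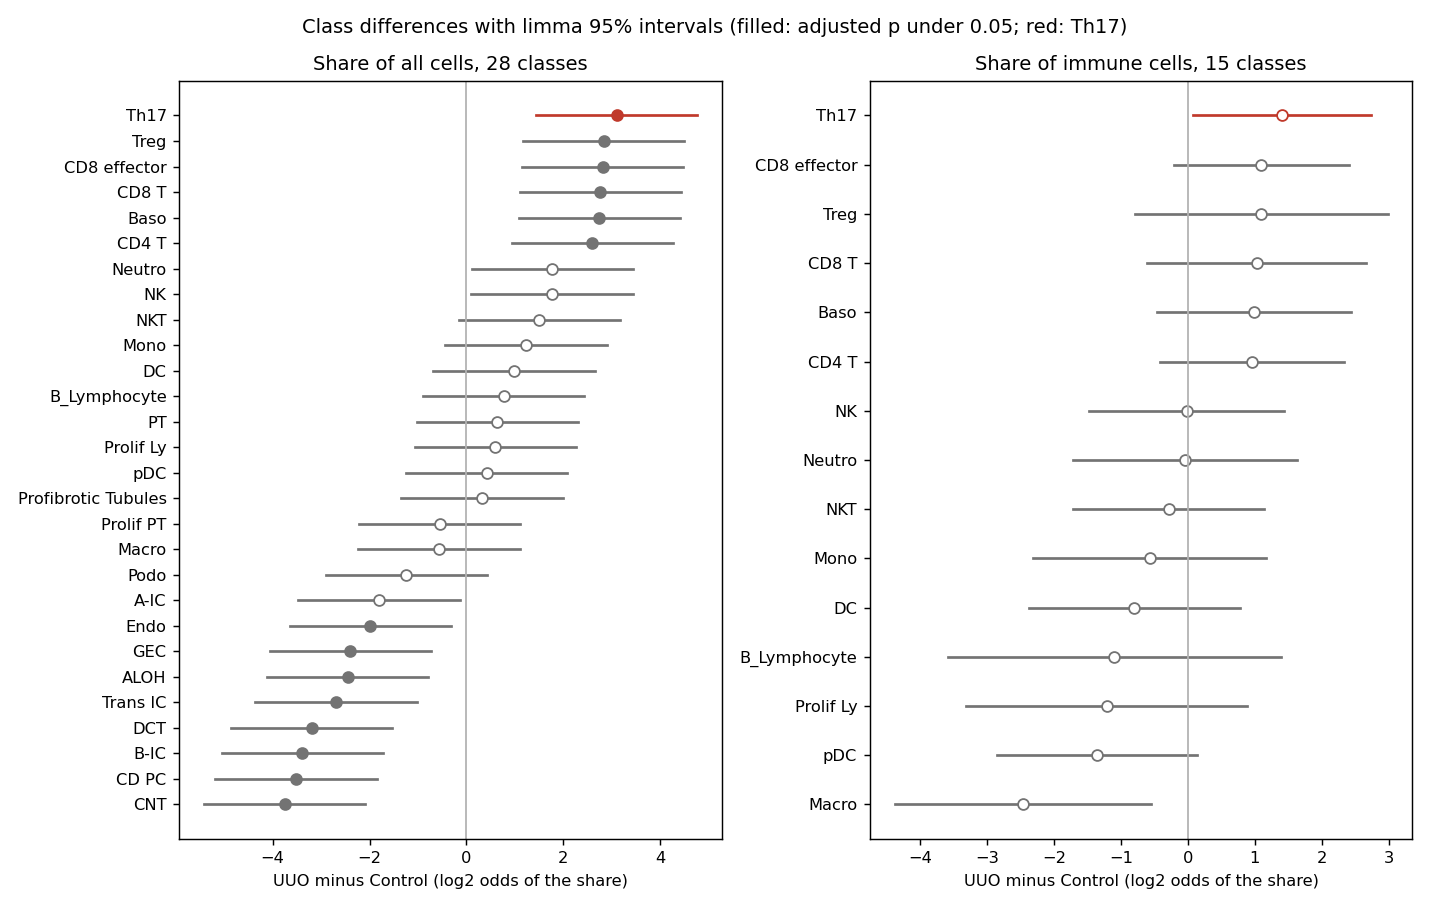
UUO minus Control difference in log2 odds for each class, as a share of all cells (left, 28 classes) and of immune cells (right, 15 classes), with limma 95% intervals. Filled points pass an adjusted p of 0.05. Th17, in red, is at 3.10 on the left and at 1.41 with an open point on the right.

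The proximal tubule class (PT) makes up most cells of the series, so Th17 was also taken as a share of the cells outside PT. It was 9.29% (8.39 to 10.3) in UUO 1 and 7.32% (6.60 to 8.09) in UUO 2, while Control samples 1, 2, 5 and 6 held between 0.506% and 0.706%, and the pooled Controls 3 and 4 held 1.46% (1.08 to 1.92). The mean was 8.31% ± 1.39 (SD, n = 2) over the UUO samples and 0.774% ± 0.389 (SD, n = 5) over the Controls. The difference was 3.60 in log2 odds (95% interval 2.35 to 4.85, limma adjusted p = 0.000545 over 27 classes), again the largest of its fit, in which 16 classes (59.3%) passed and 9 (33.3%) passed with a higher share in UUO. Adjusted over classes, the exact permutation p of 0.0476 became 0.0804, and here too passing would need nearly all 27 classes at that smallest p. In this fit the standard error of Th17 was 0.572. The order of the 2 UUO samples depended on the denominator: UUO 2 had the higher share of all cells and UUO 1 the higher share of cells outside PT.

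Within the immune compartment, which the number of tubular cells does not touch, Th17 made up 11.05% (9.98 to 12.2) of immune cells in UUO 1 and 9.56% (8.64 to 10.6) in UUO 2. In Controls 1 and 2 it was 2.68% (1.16 to 5.204) and 3.91% (1.97 to 6.90), in the pooled Controls 3 and 4 it was 6.35% (4.75 to 8.29), and in Controls 5 and 6 it was 4.94% (3.58 to 6.61) and 3.24% (2.07 to 4.83). Both UUO samples were above every Control sample, as was the case for 4 of the 15 immune classes (26.7%). The UUO mean was 10.3% ± 1.05 (SD, n = 2) and the Control mean 4.22% ± 1.46 (SD, n = 5), or 2.44 times as much. The difference of 1.41 in log2 odds (95% interval 0.07 to 2.74) did not pass (limma adjusted p = 0.301 over 15 classes, unadjusted p = 0.0401, exact permutation p = 0.0476). In this fit limma and edgeR called 0 classes (0%), with 2 and 1 classes at an unadjusted p under 0.05. The call depended on which samples were used: Th17 passed among the libraries over 10000 cells alone (1.44, limma adjusted p = 0.0456) and without Controls 3 and 4 (1.57, limma adjusted p = 0.0305). The first of these settings holds UUO 1 and 2 and Controls 5 and 6. In each setting 4 immune classes passed as higher and Th17 ranked 2, while 2 and 1 classes passed as lower.

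Set against other lymphocytes only, Th17 cells were 13.7% (12.4 to 15.1) of lymphoid cells in UUO 1 and 11.8% (10.7 to 13.1) in UUO 2. The Control samples ran from 4.57% (1.99 to 8.81) in Control 1 to 7.75% (5.64 to 10.3) in Control 5, with the pooled Controls 3 and 4 at 7.33% inside that range. The mean was 12.8% ± 1.35 (SD, n = 2) over the UUO samples and 6.35% ± 1.27 (SD, n = 5) over the Controls, a ratio of 2.02. The log2 odds difference was 1.10 (95% interval 0.32 to 1.87), with a limma adjusted p of 0.111 over the 9 lymphoid classes, an unadjusted p of 0.0123 and an exact permutation p of 0.0476. Here too limma and edgeR called 0 classes (0%), each with 2 at an unadjusted p under 0.05, and 2 of the 9 classes (22.2%) had both UUO samples above every Control sample.

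**Figure D2:**
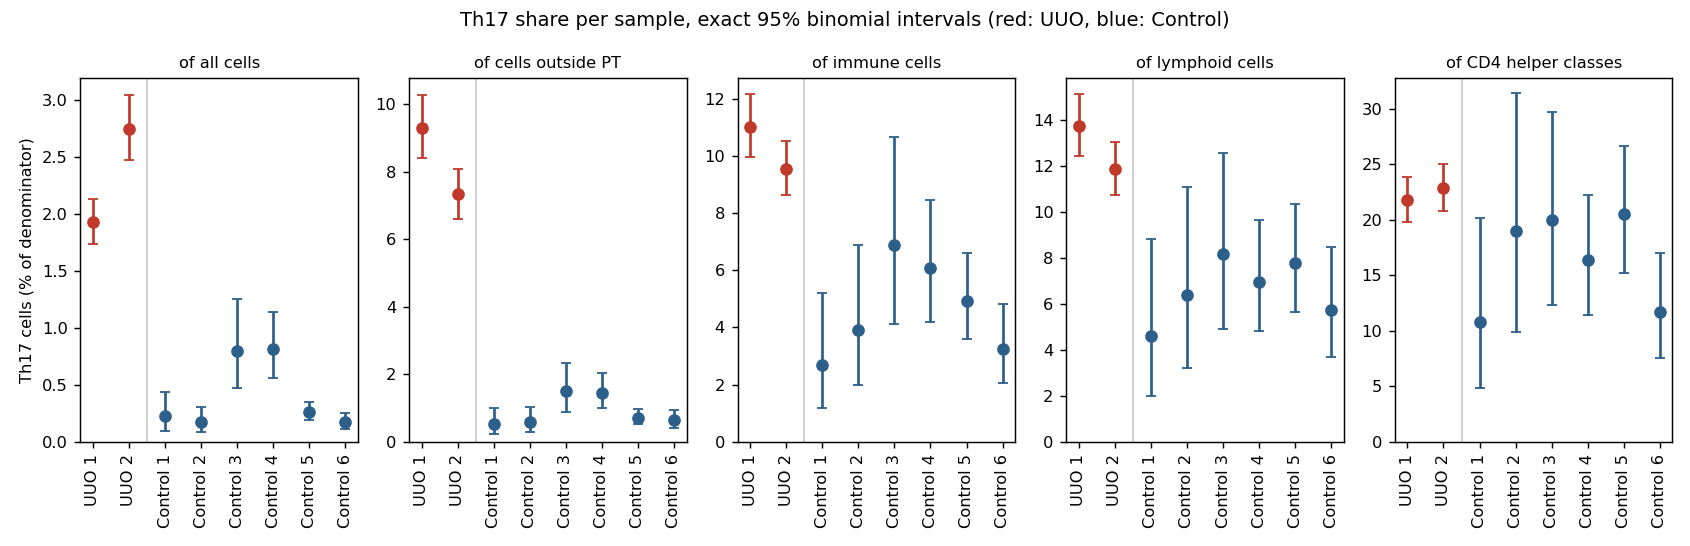
Th17 cells as a percentage of 5 denominators in each sample, with exact 95% binomial intervals; UUO samples are in red on the left and Control samples in blue on the right. Both UUO samples lie above every Control sample in all 5 panels, by a wide gap in the first panel (1.92% and 2.75% against at most 0.810%) and a narrow one in the last (21.8% and 22.8% against at most 20.5%).

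The share of Th17 in all cells is the product of 4 nested shares, so the difference can be split by level. The mean log2 share of Th17 in all cells was 3.11 higher in UUO. Of that, 1.76 lay in the share of immune cells among all cells, 0.32 in the share of lymphoid cells among immune cells, 0.49 in the share of CD4 helper cells (the classes Th17, CD4 T and Treg) among lymphoid cells, and 0.54 in the share of Th17 among those helper cells. The largest of the 4 terms thus belonged to immune cells as a whole and the last one to the helper classes themselves. CD4 helper cells made up 57.5% ± 7.90 (SD, n = 2) of lymphoid cells over the UUO samples and 40.9% ± 5.80 (SD, n = 5) over the Controls, and the samples did not overlap (51.9% and 63.1% in UUO, 33.5% to 49.1% in Control). Two-sided exact permutation p-values were 0.0476 for the immune, 0.190 for the lymphoid, 0.0476 for the helper and 0.0952 for the Th17 term. They are not adjusted over the 4 terms, and 0.0476 is the smallest these samples allow, so no term is called as passing.

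Among the helper classes, Th17 was 21.8% (19.8 to 23.9) in UUO 1 and 22.8% (20.8 to 24.98) in UUO 2. The Control samples held 10.8% (4.78 to 20.2) in Control 1, 19.0% (9.87 to 31.4) in Control 2, 17.5% (13.3 to 22.4) in the pooled Controls 3 and 4, 20.5% (15.2 to 26.7) in Control 5 and 11.7% (7.55 to 17.0) in Control 6. The UUO values were above all of these, but the intervals of 3 of the 5 Control samples reached past 21.8%. The difference was 0.62 in log2 odds, with an exact permutation p of 0.0952 and 0.381 after Benjamini-Hochberg adjustment over 4 ratios of Th17 to other classes. The other members of that family are the ratios of Th17 to CD4 T, Treg and basophils. Each of the 4 could pass only if all 4 were at the smallest possible exact p, 0.0476.

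The ratio of Th17 to the remaining CD4 T cells tests whether Th17 moved further than helper cells of no assigned type. There were 0.375 Th17 per CD4 T cell in UUO 1 (354 against 943) and 0.443 in UUO 2 (355 against 802). Controls 1, 2, 5 and 6 held 0.145, 0.262, 0.333 and 0.163, and the pooled Controls 3 and 4 held 0.746 (50 against 67). The UUO samples were above 4 of the 5 Control samples and below the pooled one. The difference was 0.54 in log2 (exact permutation p = 0.476, 0.635 adjusted), and 0.90 without Controls 3 and 4 (exact p = 0.133).

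Th17 and Treg cells were close to equal in number in UUO kidneys, with 1.08 Th17 per Treg in UUO 1 (354 against 327) and 0.890 in UUO 2 (355 against 399). The Control samples spread widely, at 0.727 in Control 1, 2.20 in Control 2 (11 against 5), 0.296 in the pooled Controls 3 and 4 (50 against 169), 1.14 in Control 5 and 0.697 in Control 6. The UUO values lay inside the Control range, and the log2 difference of 0.26 had an exact permutation p of 0.667 (0.667 adjusted). Treg cells differed between samples in mitochondrial content. Those with at least 10% mitochondrial UMIs were 33 of 327 in UUO 1 and 97 of 399 in UUO 2, against 3 of 11 in Control 1, 2 of 5 in Control 2, 6 of 169 in the pooled Controls 3 and 4, 27 of 37 in Control 5 and 26 of 33 in Control 6. With such cells of every class left out, UUO 1 and 2 held 1.17 and 1.06 Th17 per Treg, Controls 5 and 6 held 3.40 and 2.57, and the log2 difference had the other sign, -0.41. It was also of the other sign without Controls 3 and 4, at -0.10.

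Basophils, the rare granulocytes of the series title, were outnumbered by Th17 cells in every sample. There were 10.4 Th17 cells per basophil in UUO 1 (354 against 34) and 5.46 in UUO 2 (355 against 65). The Control samples held 8, 5.50, 7.14, 4.67 and 11.5, from 1, 2, 7, 9 and 2 basophils in Controls 1, 2, 3 and 4 pooled, 5 and 6. Both UUO values fell within the Control range of these plain ratios. The test adds 0.5 to each number, which puts UUO 1 (10.3) above Control 6 (9.40), and the log2 difference of 0.33 did not pass (exact permutation p = 0.476, 0.635 adjusted). Without UUO 1 it was -0.13, and among cells of at least 1000 UMIs, which left no basophil in Controls 1 and 2, it was -0.41. The samples form 2 groups, with fewer than 6 independent samples in each, so no correlation between the numbers of Th17 cells and basophils was computed.

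**Figure D3:**
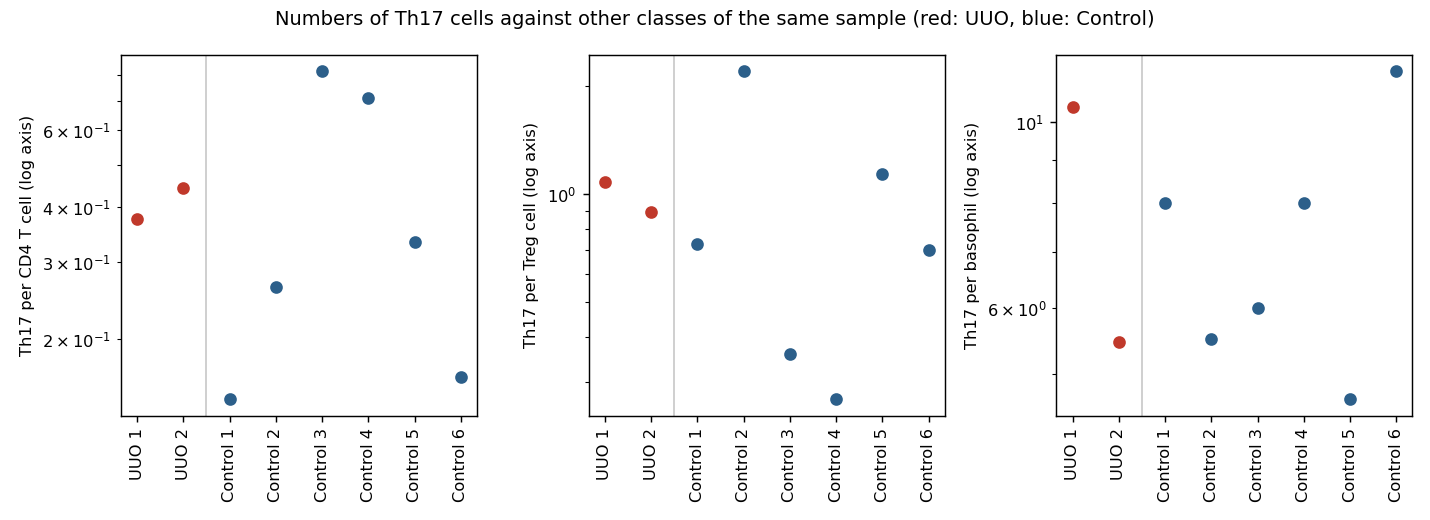
Number of Th17 cells per CD4 T cell, per Treg cell and per basophil in each sample, on log axes, with UUO in red on the left and Control in blue on the right. UUO samples sit at 0.375 and 0.443 per CD4 T cell, 1.08 and 0.890 per Treg and 10.4 and 5.46 per basophil, each inside the spread of the Control samples; Controls 3 and 4 stand highest in the first panel and lowest in the second.

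Sample medians of UMIs and genes per Th17 cell were higher in UUO than in Control, but the differences did not pass the test. Median UMIs per Th17 cell were 2650 in UUO 1 and 3065 in UUO 2. They were 1319 in Control 1 (8 cells), 2567 in Control 2 (11 cells), 1741 in the pooled Controls 3 and 4, 2186 in Control 5 and 1571 in Control 6. Both UUO medians were above every Control median, but that of Control 2 came close. Samples with at least 20 Th17 cells entered the fit, which left out Controls 1 and 2. Over these, the sample medians averaged 2857 ± 294 UMIs (SD, n = 2) for UUO and 1832 ± 317 (SD, n = 3) for Control, a 1.57-fold difference (95% interval 1.02 to 2.41, limma adjusted p = 0.197 over 19 classes, unadjusted p = 0.0414). The exact permutation p was 0.200, where 2 samples against 3 cannot go below 0.100. The median fold over the 19 classes was 1.32, Th17 had the sixth largest, and 2 classes (10.5%) passed. Leaving out Control 5 brought the limma adjusted p to 0.0270, with a log2 difference of 0.79 against 0.65 with it. That left the pooled Controls 3 and 4 and Control 6 for Th17. In that setting 8 classes passed in place of 2, and Th17 ranked 7.

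Genes detected per Th17 cell had medians of 1197 in UUO 1 and 1282 in UUO 2. The medians were 683.5 in Control 1, 1173 in Control 2, 887 in the pooled Controls 3 and 4, 975.5 in Control 5 and 682 in Control 6. Over the samples with at least 20 Th17 cells the mean was 1239 ± 60.1 genes (SD, n = 2) for UUO and 848 ± 151 (SD, n = 3) for Control, a 1.48-fold difference that did not pass (95% interval 1.03 to 2.11, limma adjusted p = 0.135), in a fit where 1 of 19 classes (5.26%) did. The number of genes followed the number of UMIs closely, with a Pearson correlation of 0.981 between their log2 values over the 843 cells, which share libraries and depth. At a matched depth of 1500 UMIs, read from a line fitted within each sample, Th17 cells were at 799 and 780 genes in UUO 1 and 2. At that depth they were at 813 in Control 2, 780 in the pooled Controls 3 and 4, 758 in Control 5 and 720 in Control 6. The UUO values lay within the Control range there, with a log2 difference of 0.04 (exact permutation p = 0.533, 0.667 adjusted over a family of 3).

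Depth was also compared with CD4 T cells of the same sample. The sequencing depth is shared there, except in the pooled Controls 3 and 4, which mix 2 libraries. The median Th17 cell held 1.34 times the UMIs of the median CD4 T cell in UUO 1 and 1.40 times in UUO 2. The factor was 1.49 in Control 2, 0.775 in the pooled Controls 3 and 4, 1.06 in Control 5 and 1.08 in Control 6. Taken by library, the Th17 and CD4 T medians were 1964 and 2317.5 UMIs in Control 3 and 1697 and 2104 in Control 4. UUO was above 3 of the 4 Control samples, and the difference of 0.36 in log2 did not pass (exact permutation p = 0.333, 0.667 adjusted, smallest possible 0.0667). Without Controls 3 and 4, the sample below 1, it was 0.20. Over all samples the median of Th17 was 2707 UMIs, second among the 9 lymphoid classes after proliferating lymphocytes (Prolif Ly, 5315), with Treg at 2188 and CD4 T at 2017. These class medians are a description, since classes were made from the same cells' transcripts and samples contribute unequally to each.

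Of the 843 cells, 68 held over 5000 UMIs, and the highest held 10457. They were 20 of 354 Th17 cells in UUO 1 and 46 of 355 in UUO 2, against 1 of 11 in Control 2, 1 of 32 in Control 4 and 0 in the other Control samples. CD4 T cells over 5000 UMIs likewise came mostly from UUO, with 17 of 943 in UUO 1 and 32 of 802 in UUO 2, against 1 of 22 in Control 3, 1 of 126 in Control 5 and 0 in the other Control samples. Whether any of these are 2 cells under 1 barcode was not tested. At the other end, 40 Th17 cells had under 1000 UMIs, which was 3.95% of Th17 cells in UUO 1, 4.51% in UUO 2 and between 0% and 21.7% in the Control samples.

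The mitochondrial share of UMIs, which rises in stressed or broken cells, had medians in Th17 cells of 2.61% in UUO 1 and 3.20% in UUO 2. It was 2.16% in Control 1, 2.03% in Control 2, 1.69% in the pooled Controls 3 and 4, 4.42% in Control 5 and 4.90% in Control 6. Controls 5 and 6 were thus above both UUO samples and the other Control samples below them. The mean was 2.91% ± 0.418 (SD, n = 2) for UUO and 3.67% ± 1.73 (SD, n = 3) for Control, a difference of -0.76 percentage points (95% interval -5.62 to 4.10, limma adjusted p = 0.887). Its size depended on single Control samples: it was -0.15 without Control 6, -0.39 without Control 5, and -1.75 without Controls 3 and 4 or without Control 4, which leaves Control 3 under 20 cells. With Control 2 let in by a minimum of 10 cells it was -0.35. Limma called 0 of 19 classes (0%) for this measure, with 0 at an unadjusted p under 0.05. Cells at or above 10% were 10 of 354 Th17 cells in UUO 1, 34 of 355 in UUO 2, 0 of 8 in Control 1, 1 of 11 in Control 2, 1 of 18 in Control 3, 2 of 32 in Control 4, 8 of 42 in Control 5 and 5 of 23 in Control 6. Among all immune cells, 5.27% in UUO 1 and 11.3% in UUO 2 were at or above 10%, against 43.7% in Control 5, 26.5% in Control 6 and 4.98% to 8.19% in the other Control samples. Leaving such immune cells out moved the Th17 difference in share of all cells to 3.19 (limma adjusted p = 0.00412).

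**Figure D4:**
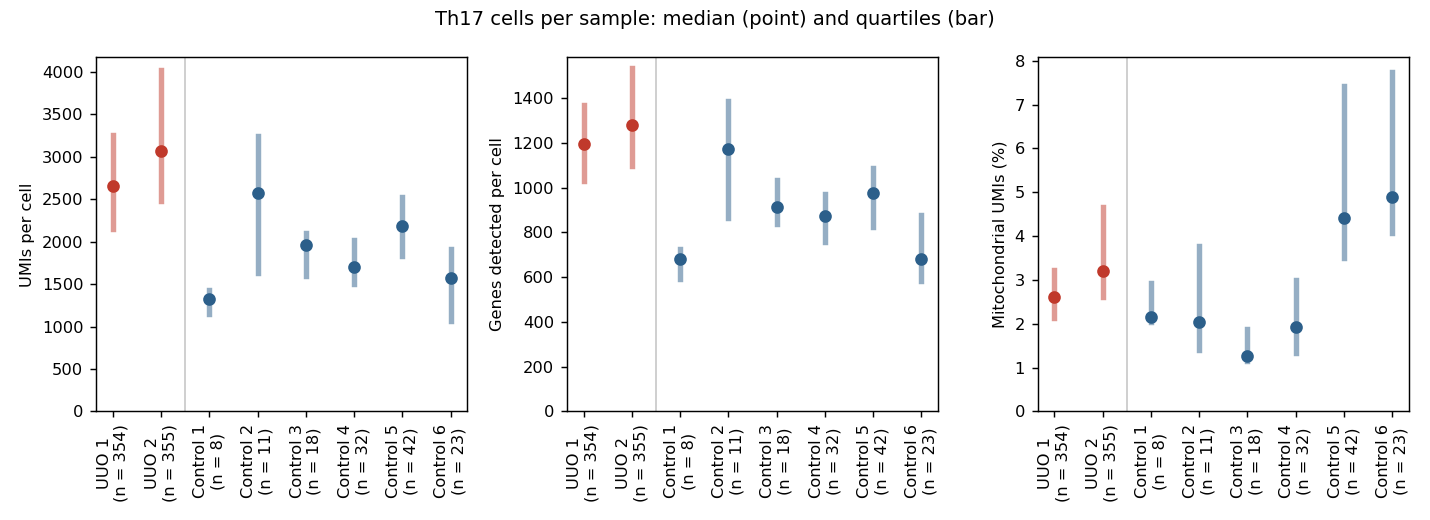
UMIs, genes detected and mitochondrial percentage of Th17 cells in each sample: points are medians, bars the quartiles of the cells, with UUO in red on the left and Control in blue on the right. Median UMIs are 2650 and 3065 in UUO and at most 2567 in Control, and the mitochondrial medians of Controls 5 and 6 (4.42% and 4.90%) are the highest.

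In the deposited embedding (UMAP, a map of the 25200 cells outside PT in which cells of like transcripts are placed near each other, with no unit), Th17 cells formed 2 separate lobes. Along the second coordinate, 222 cells lay from -4.4 to -3.6 and 598 from -2.6 to -0.2, with only 22 in between. Divided at -3, which was chosen after seeing the values, the lower lobe held 239 cells and the upper lobe 604, so no test was made on them. Both lobes were present in all 8 samples. The lower lobe held 25.1% (20.7 to 30.0) of Th17 cells in UUO 1 and 27.3% (22.8 to 32.3) in UUO 2. In Control it held 50.0% (15.7 to 84.3) in Control 1, 27.3% (6.02 to 61.0) in Control 2, 28.0% (16.2 to 42.5) in the pooled Controls 3 and 4, 45.2% (29.8 to 61.3) in Control 5 and 56.5% (34.5 to 76.8) in Control 6. The mean was 26.2% ± 1.54 (SD, n = 2) for UUO and 41.4% ± 13.2 (SD, n = 5) for Control, with Control 2 inside the UUO range.

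Neither lobe had the higher depth in every sample. In UUO 1 the median cell held 2463 UMIs in the lower and 2699 in the upper lobe, and in UUO 2 it held 2777 and 3132. The lower lobe had the higher median UMIs in 5 of the 8 samples, all of them Control samples, and the higher median mitochondrial percentage in 5 of 8. Cells at or above 10% mitochondrial UMIs were 30 of 239 in the lower lobe (12.6%) and 31 of 604 in the upper lobe (5.13%), and 18 of the 30 in the lower lobe came from UUO 2. Whether mitochondrial content bears on the lobes was not tested.

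The surroundings of the lobes differed. Among the 20 nearest cells of each Th17 cell, 90.5% were Th17, 5.65% Treg, 1.69% CD4 T and 1.08% CD8 T. For the lower lobe 97.5% were Th17 and 0.565% Treg, and for the upper lobe 87.7% were Th17, 7.66% Treg and 2.30% CD4 T. The upper lobe thus bordered on Treg and CD4 T cells, and the lower lobe stood by itself. By class medians, Treg was the nearest class to Th17, at a distance of 1.58, followed by NKT (T cells with natural killer features) at 2.95, CD8 T at 3.02, CD4 T at 3.63 and CD8 effector at 4.29. The classes and the embedding come from the same transcripts, so these distances describe the layout and test nothing.

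The position of Th17 cells was not shown to differ between the groups. The sample medians averaged -4.29 and -2.10 on the 2 coordinates in UUO and -4.44 and -2.38 in Control, over samples with at least 10 Th17 cells (n = 2 and n = 4). The distance between these means was 0.31 (exact permutation p = 0.667, 0.667 adjusted over a family of 3, smallest possible 0.0667). It was 0.13 without Control 6, 0.55 without Control 2 and 0.79 in the libraries over 10000 cells alone.

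**Figure D5:**
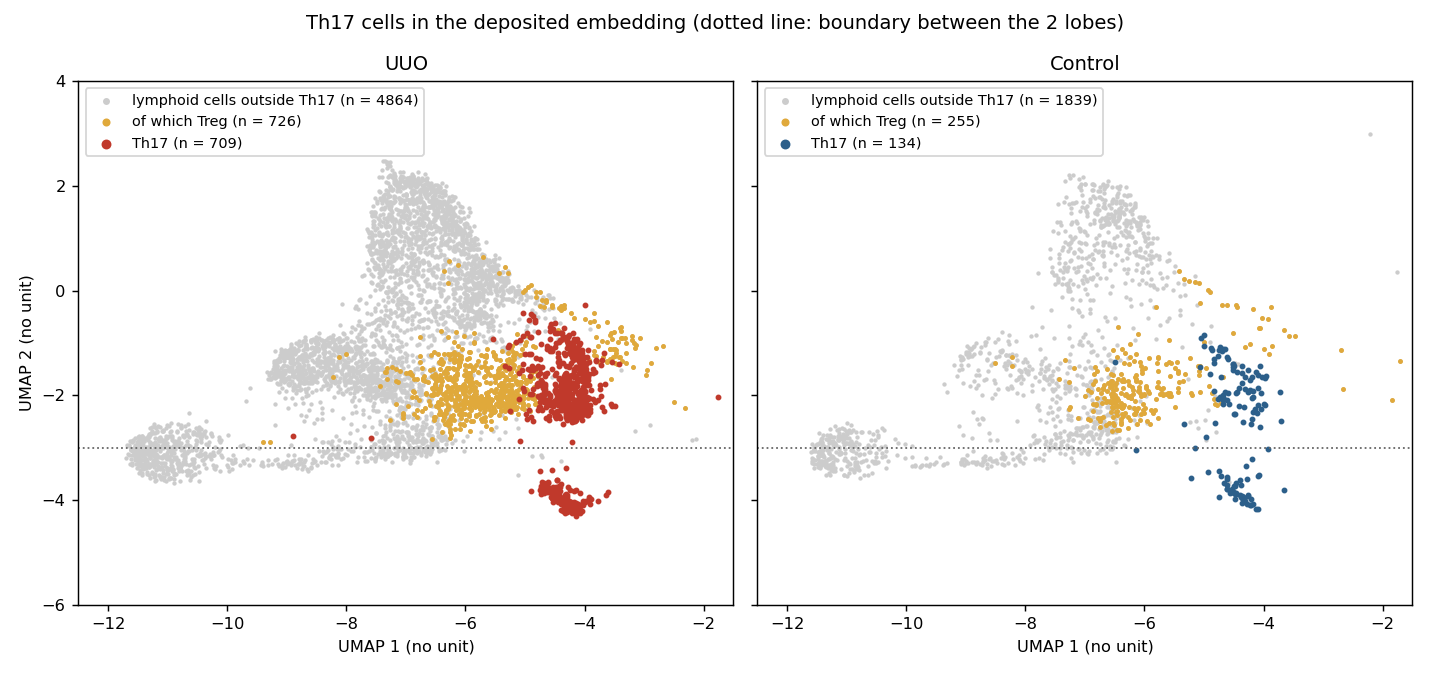
Th17 cells (red in UUO on the left, blue in Control on the right), Treg cells (gold) and the remaining lymphoid cells (grey) in the deposited embedding, whose axes have no unit; 655 of 7546 lymphoid cells, 1 of them Th17 and 2 of them Treg, lie outside the window. In both panels Th17 cells fall into a lower lobe of 239 cells and an upper lobe of 604 cells in all, divided by the dotted line at -3, and the upper lobe borders on Treg cells.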

How the data were processed

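Whole mouse kidney was profiled with 10x Genomics Chromium 3′ libraries in 2 UUO and 6 Control samples, per the labels' protocols. Cell Ranger 6.0.1, Seurat 4.0.1 and the build mm10 appear in the submitters' processing notes, without their settings. The deposited cell table gives UMIs and genes per cell as raw counts, per the file headers, with no normalization. The deposited mitochondrial value is a percent of the UMIs in the cell. The deposited UMAP coordinates are a score with no unit for 25200 cells. Of the per-sample columns, 0 went unused. Doublets were left as the authors left them.

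Class shares entered limma 3.58.1 (R 4.3.3) over all classes of a denominator, with Benjamini-Hochberg adjustment. edgeR 4.0.16 on numbers of cells was an alternative. Immune classes were 6 myeloid and 9 lymphoid by name. Single values were compared by exact permutation of samples, two-sided on the absolute difference of means. Sample medians needed 20 cells of the class, in 2 or more samples per group. Functions were tested on simulated data. Classes named are Th17, the other T cell classes, Prolif Ly, Baso and the 5 classes nearest in the embedding. The class, lists and tests were chosen with earlier results of these data known. The number of cells set the counting precision of each share, from 8 Th17 cells in 3599 (Control 1) to 355 in 12930 (UUO 2).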

Additional observations from a re-analysis of the deposited data

Results flagged for a closer look

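The share of Th17 cells in the pooled Controls 3 and 4 stood apart from the other Controls on 2 denominators, by the ratio of the gap to the nearest sample over the whole range of the 5 Control samples, compared with Dixon's 95% critical value. They held 0.805% Th17 of all cells, against 0.168% to 0.260% in the other Control samples. As a share of cells outside PT they held 1.46%, against 0.506% to 0.706%. Both flags rest on counting the 2 libraries as 1 sample. Kept apart, Controls 3 and 4 held 0.795% and 0.810% of all cells, and 1.49% and 1.44% of cells outside PT. Each was then the nearest sample to the other. Chance flags about 1 in 20 groups, and 13 groups of values were looked at. As shares of immune, lymphoid or CD4 helper cells the pooled sample did not stand apart by this measure.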

How the results depend on the processing

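Of 242 alternatives over 14 results, 229 kept the direction and the side of the threshold. Only the shares of all cells and of cells outside PT passed in the main setting. For the other results, keeping the side of the threshold meant not passing again. Matched depth, the comparison with CD4 T cells and the embedding could not have passed there, with a smallest possible exact p of 0.0667. Leaving out Control 1 or 2 could not move the difference in UMIs per cell, since neither entered that fit. With the exact permutation test adjusted over classes in place of limma, the differences of 3.10 for all cells (adjusted p = 0.111) and 3.60 for cells outside PT (adjusted p = 0.0804) no longer passed. The number of samples all but set this, since passing would need nearly all classes at the smallest possible exact p. The share of immune cells passed at 1.44 in the libraries over 10000 cells alone and at 1.57 without Controls 3 and 4, an alternative chosen after seeing the data. In each of these settings 4 immune classes passed as higher. Leaving out 1 sample at a time gave 2.84 to 3.36 for all cells, 3.41 to 3.79 for cells outside PT, 1.26 to 1.52 for immune cells and 0.97 to 1.22 for lymphoid cells. It gave -1.75 to -0.15 for the mitochondrial difference and 0.13 to 0.55 for the distance in the embedding. For log2 UMIs it gave 0.55 to 0.79, which passed without Control 5, where 8 classes passed in all. For the log2 ratio to basophils it gave -0.13 to 0.79, negative without UUO 1. That ratio was -0.41 among cells of at least 1000 UMIs. The log2 ratio to Treg was -0.41 without immune cells of 10% mitochondrial UMIs or more and -0.10 without Controls 3 and 4 (exact permutation p = 0.905 and 0.933). The mitochondrial difference was 0.078 percentage points without those cells. That setting removes cells by the measure being compared, and Control 6, left with 18 Th17 cells, fell under the minimum of 20. The log2 difference in genes at matched depth was -0.013 without Controls 5 and 6. With 8 separate samples the log2 ratio to CD4 T cells was 0.29, against 0.54. The causes were not tested. Th17 had the largest positive difference among all cells in 14 of 21 alternatives and ranked 2 or 3 in the rest. Counts of classes called moved more: over the alternatives, 0 to 9 classes passed as higher and 0 to 9 as lower among all cells (6 and 8 in the report), 0 to 11 as higher and 0 to 9 as lower outside PT (9 and 7), 0 to 4 each way among immune cells (0), 0 to 1 each way among lymphoid cells (0), 0 to 8 for UMIs (2), 0 to 5 for genes (1) and 0 to 2 for mitochondrial percentage (0). UUO and Control samples share only the numbers 1 and 2, and deviations of same-numbered samples had correlations of -0.25 and -0.0037 over 28 classes. These give no sign of a pairing by number but cannot exclude it. The deviations of UUO 1 from the UUO mean are the negatives of those of UUO 2, so the 2 correlations are not independent. With a replicate block the difference was 3.52 for all cells (limma adjusted p = 0.0198), 1.70 for immune cells (limma adjusted p = 0.0165) and -0.34 for the log2 ratio to Treg. These block values rest on UUO 1 and 2 and Controls 1 and 2 alone, since the other Controls have no UUO sample of their number. They are thus not a check on the full set of samples. The block could not be fitted for UMIs, genes, mitochondrial percentage, matched depth, the comparison with CD4 T cells or the embedding. Controls 1 and 2, with 8 and 11 Th17 cells, limit every value that rests on them.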

Other observations

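Of the 843 Th17 cells, 786 (93.2%) had at least 10 Th17 cells among their 20 nearest cells in the embedding, and 498 (59.1%) had only Th17 cells there. There were 10 cells with 0 Th17 cells among the 20, of which 5 were in UUO 1, 3 in UUO 2, 1 in Control 4 and 1 in Control 5. Cells of UUO samples made up 79.9% of the nearest cells of the lower lobe, where 77.8% of the Th17 cells themselves were from UUO, and 85.5% of those of the upper lobe, where 86.6% were. Barcodes of 66 Th17 cells occurred in another library too, as 3243 of the 74073 barcodes of the series did.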
